A study of Arabidopsis thaliana with 8 samples.

Results

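The comparison set the older leaves of 21-day Arabidopsis thaliana plants against whole seedlings taken 2 days after germination, and it used 4 of the 8 arrays of the series, 2 for each group. All plants were of the ecotype Columbia-0 and carried no transgene or mutation named in the labels. Seeds were sterilised, sown on plates of GM medium, kept dark at 4 °C for 3 days and then moved to 22 °C under a daily cycle of 16 h light and 8 h dark. The 2-day group was the whole plant with its root and cotyledons, and the mature leaves were the older 3 leaves without cotyledons. The other 4 arrays held the above-ground part and the newer 3 leaves of plants of the same later age, and they entered the fit for the estimate of spread and are given beside the results as points of reference. Organ and age changed together between the groups compared, so the effect of 1 cannot be told apart from that of the other. The design text calls the 2 arrays of each group biological replicates, and the number of plants in each is not given in the sources used here.

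A germinating Arabidopsis seedling lives at first on oil and protein laid down in the seed, which peroxisomal beta-oxidation, the glyoxylate cycle and gluconeogenesis turn into sugar while root and hypocotyl extend. A fully grown leaf is instead a source organ: it fixes carbon, stores part of it by day as starch, loads sucrose into the phloem, and later gives up its nitrogen and chlorophyll as it ages. Its cells have stopped dividing and nearly stopped expanding, whereas the seedling holds active root and shoot meristems.

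Total RNA was hybridised to one-colour arrays, and the level of a gene is given as the log2 of its processed signal minus the 75th percentile of that array, so that 0 marks the 75th percentile and a difference of 1 is a 2-fold change. Levels are comparable between groups for 1 gene, not between genes. Of the probes, 74.6% were well above background on each of the 2-day arrays and 66.7% on each of the mature-leaf arrays, and replicates correlated across genes at 0.996 and 0.994. Before scaling, the 75th percentile stood at 10.05 and 9.91 (log2 signal) on the 2-day arrays and at 8.94 and 9.02 on the mature-leaf arrays, while the centre of 7 spike-in probes lay between 11.38 and 11.43 on all 4. The mature-leaf arrays were thus dimmer against the spike-ins, and scaling on them shifted all differences by -1.02. The 2-day plants and the 21-day aerial part shared 1 slide and 1 scan, and both leaf groups shared the other, so slide and group cannot be told apart here. Values of the aerial part, which lay on the slide of the 2-day plants, are therefore given beside those of mature leaves.

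The labelled tissues were checked against marker lists. Of 22 root markers tested, 13 were undetected (below the scanner's detection call on each array) in mature leaves and were tested only through the 2-day plants. The summed linear signal of the 22, with the 75th percentile as 1, was 231 to 248 in 2-day plants and 2.65 to 2.92 in mature leaves. Most of the 2-day sum came from 1 gene, PYK10, at 7.66 and 7.79 on the log2 scale. PYK10 also read 3.08 in the aerial part, so the sum is no measure of root content. The 45 genes of the photosystems summed to 5418 to 6395 in 2-day plants and to 14480.4 to 14898.5 in mature leaves. Seed storage and late embryogenesis genes summed to 3.59 to 5.14 in 2-day plants and to 0.54 to 0.83 in mature leaves. Floral markers AP1, AP3, AG and LFY were not well above background on both arrays of either group, though AG was on 1 mature-leaf array and AP1, AP3 and AG were on both arrays of the aerial part.

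Of 20354 genes tested, 17230 (84.7%) passed an adjusted p of 0.05 in limma's moderated test, 7780 (38.2%) of them higher in mature leaves and 9450 (46.4%) lower. Changes of at least 2-fold were called for 3998 genes (19.6%) on the higher side and 6485 genes (31.9%) on the lower side. At 16-fold or more, 399 genes were higher and 1641 lower. Genes found on both mature-leaf arrays and neither 2-day array numbered 224, against 2239 with the opposite pattern. The lowest level well above background was -6.37 and -6.45 on the mature-leaf arrays and -7.18 and -7.09 on the 2-day arrays. Detection in mature leaves thus needed a higher level on this scale. The 2-day plants and mature leaves were also the least alike pair of groups, with a correlation of 0.74 between their mean levels across genes and a median absolute difference of 1.06, where the other pairs of groups ranged from 0.81 to 0.97 and from 0.28 to 0.68. Genes are not independent replicates, so these are descriptions.

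The balance of calls depended on the scaling: 45.2% of called genes were higher with the 75th percentile, 57.5% with median scaling, 56.0% after normexp background correction and 15.7% with spike-in scaling. The median difference over all genes was -0.16 and the median standard error 0.11. Since most genes passed the test, the groups of genes below are described by how many members changed, by their median and by the size of single changes, each to be read against those shares. A member undetected in 1 group was tested only because of the other and had to differ in that direction, so such members are counted beside their list. A list's median after another scaling or correction is given where it differed by more than 1.5 times. Members named without a locus were not followed singly under the alternatives. Any rise of theirs smaller in size than the spike-in shift of -1.02 would be turned by it.

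**Figure D1:**
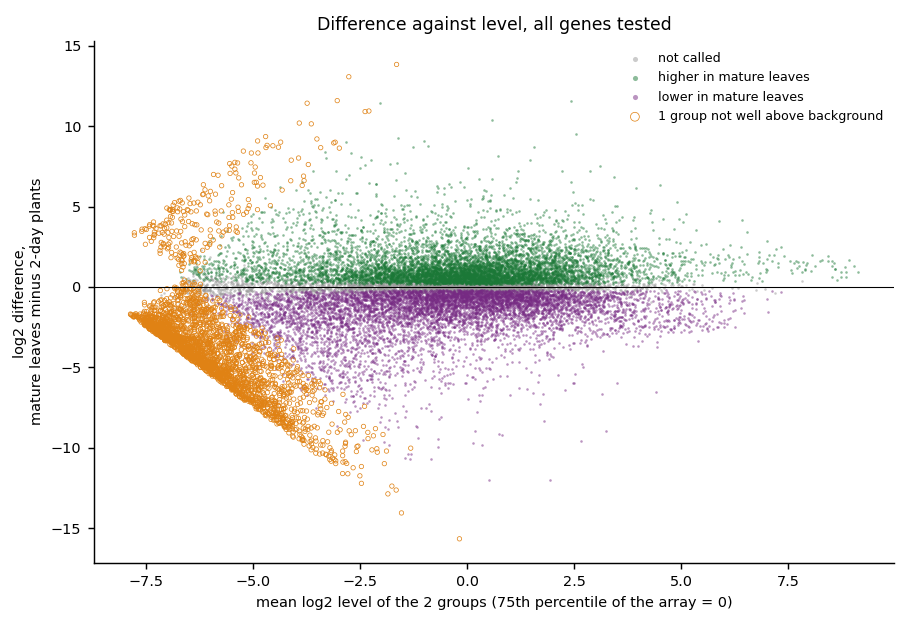
Difference between mature leaves and 2-day plants (vertical axis, log2) against the mean level of both groups (horizontal axis, log2 relative to the 75th percentile of the array) for the 20354 genes tested. Green and purple points were called higher or lower, grey points were not called, and open orange circles were undetected in 1 group, where the fitted difference is not a measured fold. The orange circles stand for 2239 genes not found in mature leaves, where the detection limit stood higher, and 224 not found in 2-day plants.

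The largest rise among genes detected on all 4 arrays was that of AT1G67865, at -3.20 and -3.56 on the 2-day arrays and 8.32 and 8.09 on the mature-leaf arrays, a difference of 11.58 ± 0.14 (standard error of the fit, n = 2 arrays a group, limma adjusted p = 8.33e-08). It was followed by the ferric reductase genes FRO7 (AT5G49740; 10.35 ± 0.32) and FRO6 (AT5G49730; 9.48 ± 0.13), which are described with the iron genes. AT2G39850 rose by 9.24 ± 0.14, HIS1-3 (AT2G18050), a stress-induced linker histone, by 9.05 ± 0.35, and COR15A (AT2G42540), a cold-regulated protein of the chloroplast stroma, by 8.71 ± 0.52. COR15A stood at -5.94 and -5.32 in 2-day plants and at 2.42 and 3.75 in mature leaves, and the groups did not overlap. The same held for every called gene, and the groups overlapped for 1608 of all 20354 genes tested. Its level in young leaves, 2.52, did not differ from that in mature leaves at the adjusted threshold (adjusted p = 0.36).

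AT1G76960 rose by 8.75 ± 0.31, from -5.54 and -5.05 to 3.36 and 3.56. It stood at -3.33 in young leaves, and mature leaves exceeded young leaves by 6.79 ± 0.31 (adjusted p = 1.16e-05). Neighbouring genes on chromosome 1 both stood among the leading rises: AT1G64370 rose by 8.72 ± 0.42, and AT1G64360, at -9.31 and -9.29 and not well above background in 2-day plants, reached 3.78 and 3.75 in mature leaves, at least 1915-fold higher. The largest bound on a rise was that of AT2G32870, at least 5411-fold, and RK2 (AT1G65800), a receptor kinase gene, was at least 1185-fold higher. Here and below, such bounds hold for the main scaling and background subtraction only. For AT2G32870 the bound was 12.4 on the log2 scale, and the fitted difference was as small as 9.14 under an alternative.

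On the lower side, ICL (AT3G21720), the isocitrate lyase that opens the glyoxylate cycle, stood first: 7.63 and 7.66 in 2-day plants against -8.10 and -7.93, not well above background, in mature leaves, at least 17029.5-fold lower. CP1 (AT4G36880), a cysteine proteinase, went from 5.62 and 5.35 to -8.55 and -8.58, at least 3812-fold lower, and AT5G44440, of the berberine bridge enzyme family, was at least 2136-fold lower. The arrays of both groups lay far apart for each of the 3 genes. Their bounds were -14.06, -11.90 and -11.06 on the log2 scale. Under alternatives the fitted differences were as small in size as -11.06, -8.70 and -7.58, in the same order. The other 21-day groups were also far below the seedling, the aerial part (-6.64, -5.82 and -7.65) and young leaves (-8.40, -6.61 and -8.25).

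Among genes detected on all 4 arrays, the largest falls were those of LTP2 (AT2G38530), an epidermal lipid transfer protein, at -12.03 ± 0.38, and of AT1G54010, annotated as a GDSL-like lipase, at -12.01 ± 0.25. LTP2 was at 7.88 and 8.02 in 2-day plants and at -3.53 and -4.65 in mature leaves. MSRB9 (AT4G21850), a methionine sulfoxide reductase, fell from 4.17 and 4.39 to -6.16 and -5.15, and AT2G47780 and the peroxidase gene AT5G64100 fell by 9.83 and 9.42 on the log2 scale. These 5 genes had levels between -7.18 and 1.88 in the other 21-day groups, below the seedling in each.

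For 3 other large falls, the levels of the other 21-day groups were far above those of mature leaves. PDF1 (AT2G42840), a protein of the protoderm, was at 4.48 and 4.51 in 2-day plants, 3.06 in the aerial part, 3.54 in young leaves and -6.03 and -6.33 in mature leaves. MLP423 (AT1G24020), a major latex protein-like gene, read 5.14 and 4.86 in 2-day plants, 4.24 in young leaves and -4.50 and -4.92 in mature leaves. GER3 (AT5G20630), a germin-like protein, read 7.33 and 7.55, 7.12 and -3.39 and -0.91 in the same order. The difference from young leaves was -9.71 ± 0.13 for PDF1 (adjusted p = 1.09e-06), -8.95 ± 0.19 for MLP423 (adjusted p = 1.74e-06) and -9.27 ± 0.81 for GER3 (adjusted p = 1.35e-04).

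**Figure D2:**
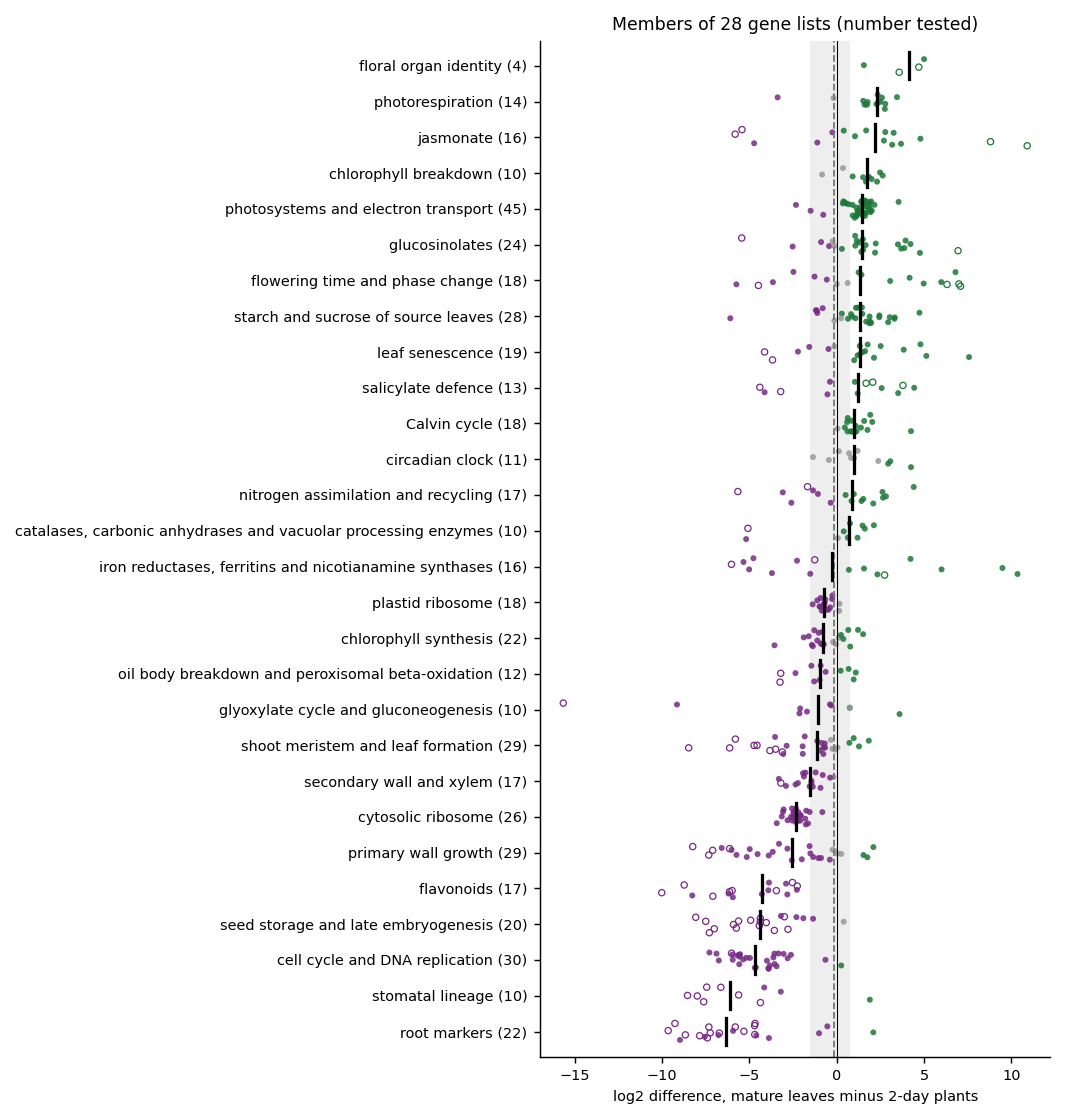
Log2 difference between mature leaves and 2-day plants (horizontal axis) for every tested member of 28 gene lists, ordered by the median (black bar). Green, purple and grey points were called higher, lower or not called, open points were undetected in 1 group, and the grey band and dashed line give the quartiles (-1.51 and 0.76) and the median (-0.16) of all genes tested. Root markers, with a median of -6.33, and photorespiration, with a median of 2.30, lie far outside that band.

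Of 10 genes of the glyoxylate cycle and gluconeogenesis, 2 were higher, 7 lower (1 of them undetected in mature leaves) and 1 not called, with a median of -1.05 that became -0.61 with median scaling and -2.07 with spike-in scaling. MLS (AT5G03860), malate synthase and the partner of ICL, fell from 5.35 and 5.26 to -3.47 and -4.22, a difference of -9.15 ± 0.33 (adjusted p = 1.8e-06). Unlike ICL, MLS was well above background in mature leaves, whereas it was not in young leaves.

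PCK1 (AT4G37870), the phosphoenolpyruvate carboxykinase of gluconeogenesis, fell by 2.14 on the log2 scale and ACO3, an aconitase, by 2.1. The peroxisomal malate dehydrogenases went opposite ways: PMDH1 fell from 1.65 and 1.45 to -0.12 and -0.19, and PMDH2 (AT5G09660) rose from 2.85 and 3.20 to 6.66 and 6.58, a difference of 3.59 ± 0.12. PMDH2 also serves photorespiration in leaf peroxisomes. ACN1 (AT3G16910), the peroxisomal acetyl-CoA synthetase, was 0.74 ± 0.14 higher with the main scaling and lower by spike-in scaling (-0.29).

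Of 12 genes of oil body breakdown and beta-oxidation, 4 were higher and 8 lower (2 of them undetected in mature leaves), with a median of -0.96. By spike-in scaling 0 were higher and 10 lower with a median of -1.98, after normexp correction 5 and 6 with a median of -0.37, and with median scaling the median was -0.52. The multifunctional protein MFP2 (AT3G06860) fell by 2.37 and the thiolase PED1 (AT2G33150) by 1.3 on the log2 scale, whereas AIM1 (AT4G29010), the other multifunctional protein, was 0.97 ± 0.07 higher (-0.06 with spike-in scaling). The lipase SDP1 (AT5G04040) was 1.09 ± 0.08 higher, a call lost by spike-in scaling (adjusted p = 0.63), and its relative SDP1L (AT3G57140) was not well above background in mature leaves and at least 3.79-fold lower, a call lost after normexp correction. Relative to young leaves, 9 of the 10 genes detected in either leaf group were higher in mature leaves and 0 lower. Between both leaf groups 71.7% of all genes tested differed, 7372 genes being higher in mature leaves and 7218 lower. MFP2, for instance, was at 1.07 in young and at 1.55 and 1.53 in mature leaves, both far below the seedling at 3.96 and 3.85. The comparison with young leaves was not repeated with another scaling. Before scaling, the 75th percentile was lower on the mature-leaf arrays (8.94 and 9.02) than on the young-leaf arrays (9.77 and 9.72). The spike-in centre was not lower (11.43 and 11.42 against 11.28 and 11.29). Spike-in scaling would thus lower every difference from young leaves. It would turn the rises over young leaves of MFP2 (0.47), AIM1 (0.59), PED1 (0.83) and SDP1 (0.86).

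Seed storage and late embryogenesis genes were low in both groups and lower still in mature leaves. Of 20 tested, 0 were higher, 19 lower and 1 not called, with a median of -4.38, or -3.02 with undetected members at their bound. After normexp correction 14 were lower, with a median of -0.77. However, 15 of them passed the filter only through the 2-day plants and so had to be lower. The 12S cruciferin CRA1 (AT5G44120) read -0.83 and -0.00 in 2-day plants and was undetected in mature leaves, at least 63.7-fold lower, and the oleosin OLEO3 (AT5G51210) was at least 51.6-fold lower. EM6 (AT2G40170), a late embryogenesis protein, read -2.04 and -1.3 in 2-day plants, at least 26.7-fold above mature leaves. OLEO1 (AT4G25140) fell by 2.31 on the log2 scale, a call lost without 2-day replicate 2 (adjusted p = 0.098) and with quantile normalization (0.088). M17, another late embryogenesis gene, read -1.49 and -1.49 in 2-day plants and -0.62 and -1.57 in mature leaves and was not called, though it was at -8.09 in young leaves.

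The 2-day samples held roots and the leaf samples did not, and 21 of 22 root markers were lower in mature leaves, with a median of -6.33 (-5.22 with bounds, -2.21 after normexp correction). The 13 that were undetected in mature leaves passed the filter only through the 2-day plants and so had to be lower. In these bulk samples, fewer cells of a type and less RNA per cell cannot be told apart. CASP1 (AT2G36100), a protein of the endodermal Casparian strip, read 1.91 and 2.06 in 2-day plants and was at least 336-fold lower in mature leaves. EXPA7 (AT1G12560), an expansin of root hairs, was at least 125-fold lower, and PIN2 (AT5G57090), the auxin carrier of the root tip, at least 42.1-fold. PYK10 (AT3G09260), the myrosinase of endoplasmic reticulum bodies in roots and seedlings, read 7.66 and 7.79 in the seedling and fell by 8.98 to -1.18 and -1.34.

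The exception was HKT1 (AT4G10310), a sodium transporter of the vasculature, which was 2.09 ± 0.42 higher (adjusted p = 0.0037) and went from -6.87 and -6.16 to -4.14 and -4.71. SCR, which also acts in the leaf, was only 0.54 lower, and another probe of the same gene was called in the opposite direction. The nitrate transporter NRT2.1 was not well above background on both arrays of either group.

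Genes of the photosystems and electron transport were mostly higher. Of 45, 42 were higher and 3 lower, with a median of 1.47, and the quartiles were 1.1 and 1.68. PSBO1 (AT5G66570), the oxygen-evolving subunit of photosystem II, went from 7.93 and 8.23 to 9.77 and 9.74, a difference of 1.67 ± 0.11 (adjusted p = 2.03e-05). LHCA1 (AT3G54890), an antenna protein of photosystem I, went from 8.27 and 8.49 to 9.71 and 9.66. The groups did not overlap for either gene, which held for every called gene.

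PGRL1A (AT4G22890), of cyclic electron flow, had the largest rise of the list, 3.54 ± 0.11, from 3.45 and 3.70 to 7.16 and 7.06. PSBQ-2 (AT4G05180) rose by 2.15 ± 0.09, while its paralogue PSBQA rose by 0.53 ± 0.11, less in size than the spike-in shift of -1.02. The 3 exceptions were the ferredoxins FD1 (AT1G10960) and FD2, which fell by 1.5 and 0.78, and LHCB4.3 (AT2G40100), a minor antenna gene, which fell by 2.34 while LHCB4.2 rose by 2.00 ± 0.13. PSBS (AT1G44575), needed for energy-dependent quenching, was 0.38 ± 0.12 higher, a call that was lost without either 2-day replicate 1 or mature-leaf replicate 1 and that turned negative by quantile (-0.34) and spike-in scaling (-0.64). With quantile normalization 33 members were higher and 4 lower and with spike-in scaling 28 and 8, with medians of 0.57 and 0.44.

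Of 18 Calvin cycle genes, 17 were higher and 0 lower, with a median of 1.0. For RBCS1B, however, another probe of the same gene was called in the opposite direction. But 6 were higher and 5 lower, with a median of -0.02, by spike-in scaling. With quantile normalization 11 were higher and 4 lower, with a median of 0.65. The small subunit gene RBCS1A (AT1G67090) changed by 0.61 ± 0.08, from 8.33 and 8.5 to 9.06 and 9.0, and became negative by quantile (-0.29) and spike-in scaling (-0.41). RCA (AT2G39730), Rubisco activase, rose from 6.16 and 6.71 to 8.45 and 8.25, and PRK (AT1G32060), phosphoribulokinase, rose by 2.03 ± 0.14. The largest rise was that of CP12-2 (AT3G62410), which binds PRK and glyceraldehyde 3-phosphate dehydrogenase in the dark. It read -0.18 and 0.57 in 2-day plants and 4.45 and 4.44 in mature leaves, a difference of 4.25 ± 0.25, while its paralogue CP12-1 rose by 1.02 ± 0.08.

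Photorespiration recycles the product of Rubisco's oxygenase reaction through chloroplast, peroxisome and mitochondrion. Of its 14 genes, 12 were higher, 1 lower and 1 not called, with a median of 2.30, and 12 were still higher by spike-in scaling (median 1.28). GGT1 (AT1G23310), the peroxisomal glutamate:glyoxylate aminotransferase, went from 4.62 and 5.0 to 8.29 and 8.22, a difference of 3.45 ± 0.14, and GGAT2 (AT1G70580) rose by 2.78 ± 0.13. SHM1 (AT4G37930), mitochondrial serine hydroxymethyltransferase, rose from 5.08 and 5.23 to 7.69 and 7.63. The glycolate oxidases differed: GOX1 (AT3G14420) and GOX2 rose by 2.34 ± 0.13 and 1.51 ± 0.12, and GOX3 (AT4G18360) fell from -1.23 and -1.54 to -4.69 and -4.87, a difference of -3.39 ± 0.14. GDCH, the H protein of glycine decarboxylase, was not called (-0.19 ± 0.10).

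Chlorophyll synthesis was mostly lower and breakdown mostly higher. Of 22 genes of synthesis, 6 were higher, 13 lower and 3 not called, with a median of -0.79. By spike-in scaling 0 were higher and 18 lower, with a median of -1.82, and the median was -0.36 with median scaling. CAO (AT1G44446, listed as CH1), which makes chlorophyll b, rose by 1.51 ± 0.17 and CRD1 (AT3G56940), of the cyclase step, by 1.22 ± 0.13, both calls lost by spike-in scaling (adjusted p = 0.051 and 0.26). GSA2 (AT3G48730), of 5-aminolevulinate synthesis, fell from 4.54 and 4.52 to 2.64 and 2.62. HEMA1 (AT1G58290), glutamyl-tRNA reductase, was not called, at 3.06 and 3.31 and 3.11 and 2.81 (-0.22 ± 0.15, adjusted p = 0.22).

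The 3 light-dependent protochlorophyllide oxidoreductases spread over a wide range. PORA (AT5G54190), the form of etiolated seedlings, fell from 1.86 and 1.58 to -2.22 and -1.48, a difference of -3.57 ± 0.25 (adjusted p = 2.48e-05), while young leaves were at 2.66. PORB (AT4G27440) read 6.55 and 6.58 in 2-day plants and 5.29 and 6.18 in mature leaves, a fall of 0.83 whose adjusted p of 0.048 became 0.13 to 0.20 without either 2-day array or mature-leaf replicate 1. PORC (AT1G03630), the form of mature green tissue, was at 4.01 and 4.1 and 4.03 and 3.99 and did not differ at the threshold (-0.04 ± 0.07, adjusted p = 0.56).

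Of 10 genes of chlorophyll breakdown, 8 were higher, 0 lower and 2 not called, with a median of 1.75 (0.73 by spike-in scaling, with 1 lower). PPH (AT5G13800), pheophytinase, rose from 0.88 and 0.93 to 3.35 and 3.41, a difference of 2.48 ± 0.06. PAO (AT3G44880), pheophorbide a oxygenase, rose by 2.30 ± 0.10, and NYE1 (AT4G22920), the stay-green magnesium dechelatase, by 1.67 ± 0.12. CLH2 (AT5G43860), a chlorophyllase, had the largest difference of the list, 2.63 ± 0.12. All 4 were also higher in mature than in young leaves, by 1.68 ± 0.06, 1.32 ± 0.10, 1.40 ± 0.12 and 1.42 ± 0.12. The chlorophyll b reductase NYC1 (0.35 ± 0.38) and HCAR (-0.84 ± 0.53) were not called.

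Genes of starch turnover and sucrose export were mostly higher, 21 of 28, with 5 lower and 2 not called and a median of 1.32. SPS4F (AT4G10120), a sucrose phosphate synthase, went from -2.01 and -1.38 to 3.09 and 3.00, a difference of 4.73 ± 0.20 (adjusted p = 2.92e-06). Of the other sucrose phosphate synthases, SPS1F rose by 0.88 ± 0.16 and SPS2F fell by 1.14. The exporters of the phloem path rose: SWEET11 (AT3G48740) from 0.68 and 0.95 to 4.21 and 4.05, and the companion cell carrier SUC2 (AT1G22710) from 1.1 and 1.31 to 3.74 and 3.53. SWEET12 (AT5G23660) was 1.07 ± 0.38 higher, a call that was lost without 2-day replicate 1 or mature-leaf replicate 2 (adjusted p = 0.18 and 0.16).

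Among starch-degrading enzymes of the list, a grouping made after the values were seen, SEX1, PWD, SEX4, BAM1, BAM3, PHS2, DPE1, DPE2 and ISA3 were higher and BAM5 lower. The rises ran from 0.64 ± 0.22 for BAM1 to 3.30 ± 0.31 for BAM3. SEX1 read 1.38 and 1.36 in 2-day plants and 4.03 and 4.59 in mature leaves. GPT2 (AT1G61800), the glucose 6-phosphate carrier of plastids, moved the other way, from 1.90 and 1.29 to -4.51 and -4.50, a difference of -6.10 ± 0.21 (adjusted p = 1.44e-06). BAM5 (AT4G15210), an extraplastidic beta-amylase, was lower by 1.2 with the main scaling, higher after normexp correction (0.48), and not called without either 2-day array or mature-leaf replicate 2, or with median or quantile scaling. With spike-in scaling, 12 genes of the list were higher and 8 lower, with a median of 0.30.

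In nitrogen assimilation, 10 of 17 genes were higher and 7 lower (2 of them undetected in mature leaves), with a median of 0.84 (-0.18 by spike-in and 1.28 by median scaling). The nitrate reductase NIA2 rose by 2.62 ± 0.16 and NIA1 by 2.09 ± 0.24, and GLU1, the ferredoxin-dependent glutamate synthase of photorespiratory ammonia, by 2.65 ± 0.12. Among cytosolic glutamine synthetases, GLN1;2 (AT1G66200) rose from 4.00 and 3.81 to 5.48 and 5.16, a difference of 1.41 ± 0.15 that was not called by spike-in scaling (adjusted p = 0.091). GLN1;4 (AT5G16570) was 0.84 ± 0.15 higher, though lower by spike-in scaling (-0.18). GLN1;1 (AT5G37600) fell by 1.08 on the log2 scale, GLN1;3 (AT3G17820) from 1.05 and 1.16 to -1.73 and -2.25, and GLN1;5 (AT1G48470), not well above background in mature leaves, was at least 14.6-fold lower. The plastid form GS2 rose by 0.98 ± 0.08.

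Asparagine synthetases split likewise. ASN1 (AT3G47340), whose transcript is known to rise in the dark and under sugar starvation, went from -3.60 and -3.20 to 1.0 and 1.0, a difference of 4.40 ± 0.30 (adjusted p = 2.26e-05). ASN2 (AT5G65010) rose by 2.82 ± 0.08 and ASN3 (AT5G10240) fell by 2.60. The 21-day groups differed for ASN2, at 2.99 in the aerial part, 1.77 in young leaves and 4.15 and 4.05 in mature leaves, while ASN1 did not pass the threshold between young and mature leaves (0.71 in young leaves, adjusted p = 0.42).

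**Figure D3:**
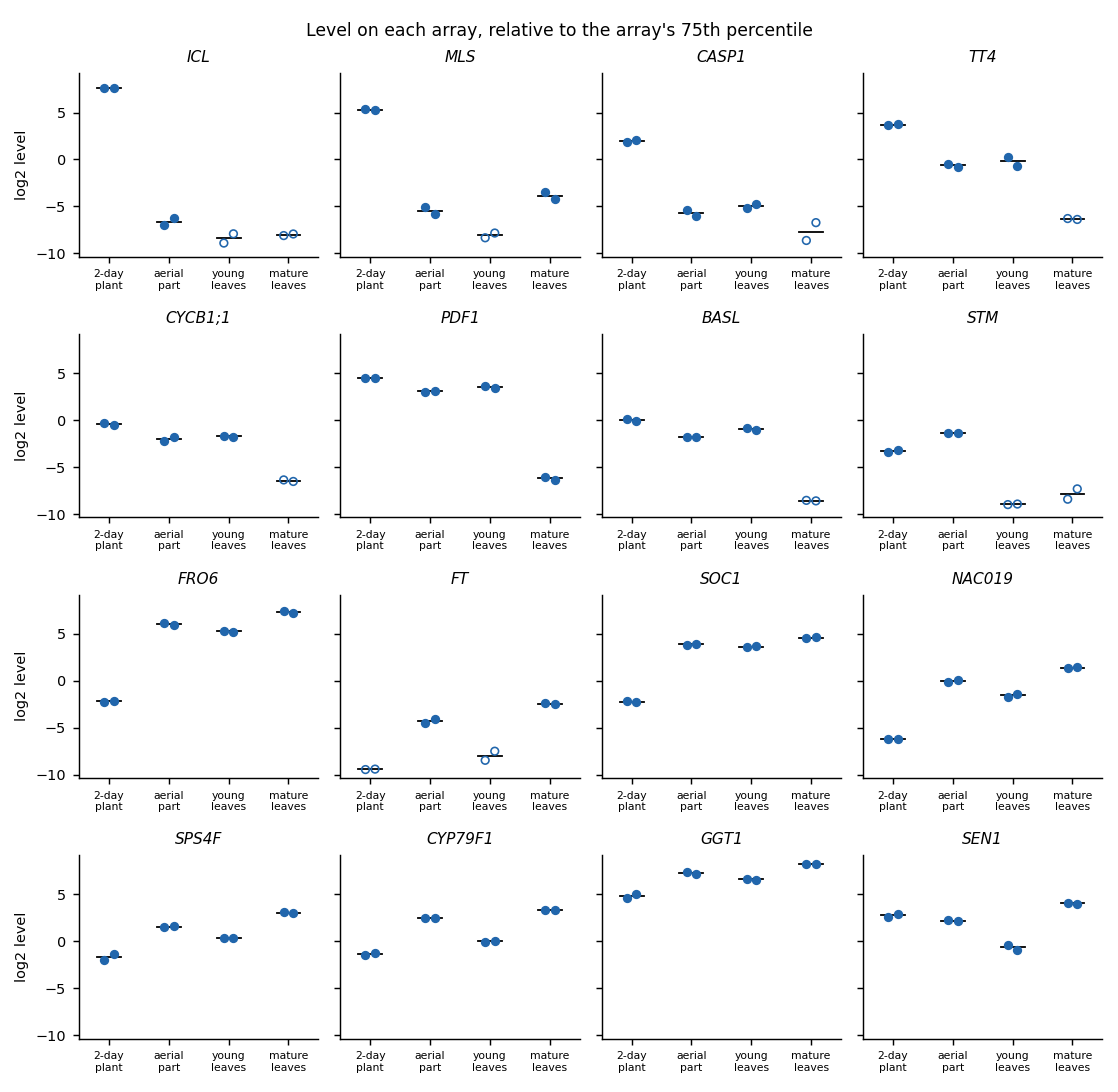
Level of 16 named genes on each array (points, log2 relative to the 75th percentile of the array) in the 4 groups, with the group mean as a bar; open points mark groups in which the gene was not well above background on both arrays. The upper rows hold genes lower in mature leaves than in 2-day plants and the lower rows genes that were higher; PDF1, BASL and CYCB1;1 are far higher in young than in mature leaves, and FT is at its highest in mature leaves.

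Senescence-related genes were partly raised in mature leaves, 13 higher, 5 lower (2 of them undetected there) and 1 not called of 19, with a median of 1.32. The late markers SAG12 and SAG13 were not tested, since SAG12 was well above background on no array and SAG13 on 1 of those compared, from mature leaves. NAC019 (AT1G52890), a NAC factor of stress and senescence, rose from -6.18 and -6.17 to 1.31 and 1.49, a difference of 7.57 ± 0.14 (adjusted p = 2.01e-07). NAP (AT1G69490) rose from -3.38 and -2.93 to 2.27 and 1.67, and ORE1 (AT5G39610, listed as NAC6), both regulators of leaf senescence, from -3.01 and -2.74 to 1.96 and 1.87. SEN1 (AT4G35770), induced by darkness and age, read 2.61 and 2.92 in 2-day plants, -0.64 in young leaves and 4.13 and 4.04 in mature leaves, and its call was lost by spike-in scaling (adjusted p = 0.18).

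The WRKY factors of the list did not share one direction. WRKY53 (AT4G23810) and WRKY75 (AT5G13080), both known to promote senescence, were undetected in mature leaves and at least 14-fold and 8.81-fold lower than in 2-day plants, and WRKY6 fell by 1.58. WRKY70, a repressor of senescence, rose from -2.41 and -2.55 to 1.36 and 1.34. Of the 18 genes detected in either leaf group, mature leaves were above young leaves for 13 and below for 1. Of all 20354 genes tested, 7372 were above young leaves and 7218 below. With spike-in scaling 9 of the list were higher and 6 lower than in 2-day plants, with a median of 0.29.

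The cell cycle was almost uniformly lower: 29 of 30 genes fell, 1 of them undetected in mature leaves, with a median of -4.67 (-3.03 after normexp correction). CYCB1;1 (AT4G37490), a mitotic cyclin, read -0.34 and -0.50 in 2-day plants and was undetected in mature leaves, at least 63.3-fold lower. HIK (AT1G18370), a kinesin of cytokinesis, fell from 1.68 and 1.49 to -5.88 and -5.54, a difference of -7.29 ± 0.16 (adjusted p = 3.55e-07). CDC20.1 (AT4G33270), an activator of the anaphase-promoting complex, fell by 6.89 and KNOLLE (AT1G08560, listed as SYP111), the syntaxin of the cell plate, by 5.59.

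Genes of DNA replication fell as well. PCNA1 (AT1G07370), the sliding clamp, fell from 1.07 and 0.98 to -3.96 and -4.34, PCNA2 by 3.05, and the 6 MCM helicase genes by 3.56 to 4.00. MCM2 was at 0.79 and 0.66 in 2-day plants and 0.62 in young leaves. The exception was CDKA;1 (AT3G48750), the kinase expressed in dividing and non-dividing cells: it was 0.25 ± 0.07 higher, a call lost after normexp correction and without 2-day replicate 1 or either mature-leaf array, and it was lower by spike-in scaling (-0.77).

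Transcripts of cytosolic ribosomal proteins fell in every case, 26 of 26, with a median of -2.34 and a range from -3.44 to -0.83. RPS6A (AT4G31700) fell from 6.12 and 6.17 to 2.78 and 2.63, and RPL9D (AT4G10450) from 3.29 and 3.08 to 0.10 and -0.03. RPS5A (AT3G11940), which is strongly expressed in dividing cells, fell by 1.64. Paralogues differed in size: RPS6A fell by 3.44 and RPS6B by 1.8, RPS18A by 2.32 and RPS18C by 0.83, although array probes of near-identical paralogues may bind each other's transcripts. All 26 were also lower than in young leaves and than in the aerial part, where 60.5% of all genes tested differed from mature leaves. Among all 20354 genes tested, mature leaves were below young leaves for 7218 and below the aerial part for 6338.

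Of 18 plastid ribosomal protein genes, 16 fell and 0 rose, with a median of -0.71. RPL9 (AT3G44890) fell by 1.38, RPL35 (AT2G24090) by 1.12 and RPL11 (AT1G32990) by 0.99. RPS1 and RPL1 were not called (0.16 ± 0.09 and 0.13 ± 0.10). With median scaling, 3 members were higher and 10 lower, with a median of -0.27, and with spike-in scaling 18 were lower, with a median of -1.74.

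Genes of the stomatal lineage were mostly lower in mature leaves. Of 10, 9 were lower and 1 higher, with a median of -6.13 (-4.25 with bounds, -2.02 after normexp correction), and 7 were undetected in mature leaves and so had to be lower to be tested. SPCH (AT5G53210), which starts the lineage, read -2.04 and -2.11 in 2-day plants and was at least 20.2-fold lower. BASL (AT5G60880), of asymmetric division, read 0.07 and -0.11 and was at least 83.8-fold lower, and SDD1 (AT1G04110), a subtilase that limits stomatal number, at least 51.4-fold. FAMA (AT3G24140), which drives guard cell formation, rose from -2.66 and -2.64 to -0.88 and -0.64, a difference of 1.89 ± 0.10 (adjusted p = 7.57e-06). In young leaves SPCH was at -2.45, BASL at -0.94 and FAMA at -0.55.

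Of 29 genes of the shoot meristem and of leaf formation, 4 were higher, 21 lower and 4 not called, with a median of -1.12. Of the lower genes 8 were undetected in mature leaves and had to be lower. The median became -0.64 after normexp correction, -0.68 with median scaling and -2.14 with spike-in scaling. KNAT1 (AT4G08150), a class I KNOX homeobox gene, read -0.24 and -0.04 in 2-day plants and was at least 77.2-fold lower in mature leaves. KNAT6 (AT1G23380) was at least 23.5-fold and STM (AT1G62360), which maintains the meristem, at least 8.63-fold lower. STM was present in the aerial part (-1.39) and undetected in both leaf groups. ANT (AT4G37750), a growth regulator of young organs, fell from -0.43 and -0.34 to -2.36 and -2.32 while young leaves were at 0.44.

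Other leaf regulators changed little or rose. TCP2 (AT4G18390), of the CIN class that ends leaf growth, rose by 1.83 ± 0.16 and YAB5 (AT2G26580), of abaxial fate, by 1.27 ± 0.12, the latter call lost by spike-in scaling (adjusted p = 0.12). TCP4 (AT3G15030), of the same class, was lower by 0.69, not called with median scaling (adjusted p = 0.16). PHV (0.04 ± 0.07) and FIL (-0.10 ± 0.10) were not called. For KAN, of the same list, another probe of the gene was called in the direction opposite to its chosen probe.

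Of 29 genes of primary wall growth, which are expansins, xyloglucan enzymes and genes of cellulose synthesis, 22 were lower and 3 higher, with a median of -2.58 (-1.70 after normexp correction). Of the lower genes 4 were undetected in mature leaves. XTH9 (AT4G03210), a xyloglucan endotransglucosylase/hydrolase, fell from 4.93 and 4.73 to -1.75 and -1.78, a difference of -6.59 ± 0.14, and it was at 4.52 in young leaves. EXPA2 (AT5G05290), an expansin known from germinating seeds, read -0.49 and -0.25 in 2-day plants and was not well above background in any 21-day group, at least 65.5-fold lower in mature leaves. XTH4 (AT2G06850) fell by 3.67. EXPA1 (AT1G69530) rose from 2.55 and 2.62 to 4.74 and 4.61 and EXPA8 (AT2G40610) from 1.37 and 2.27 to 3.49 and 3.64. The primary wall cellulose synthases CESA1 (-0.25 ± 0.10) and CESA3 (-0.09 ± 0.09) were not called, and CESA6 fell by 0.90.

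Secondary wall and xylem genes were lower in 16 of 17 cases, 1 of them undetected in mature leaves, with a median of -1.56. XCP1 (AT4G35350), a cysteine peptidase of xylem vessels, fell from 0.94 and 1.07 to -2.29 and -2.34, LAC4 (AT2G38080), a lignin laccase, by 2.91, and CESA8 (AT4G18780), of the secondary wall cellulose synthase, by 1.79. The other CESA genes of that complex, CESA4 and CESA7, fell by 1.56 and 1.94. In young leaves XCP1 was at 0.86 and CESA8 at -0.46. After normexp correction 2 members were higher and 11 lower, with a median of -0.55, and by spike-in scaling the median was -2.58.

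The flavonoid list fell in 17 of 17 cases, its median being -4.29 (-4.16 with bounds, -2.65 after normexp correction), although 8 were undetected in mature leaves, and so had to be lower to be tested, and 3 of the 17 turned higher after normexp correction. TT4 (AT5G13930), chalcone synthase and the entry enzyme, read 3.62 and 3.76 in 2-day plants and -6.29 and -6.38, not well above background, in mature leaves, at least 1041-fold lower. DFR (AT5G42800), of anthocyanin synthesis, fell from 2.36 and 2.26 to -6.75 and -5.18, where 1 of the arrays was well above background. The flavonol regulator MYB12 (AT2G47460) was at least 34.5-fold lower, and the anthocyanin regulator PAP1 fell from 1.92 and 1.78 to -4.30 and -4.41. TT4 was at -0.64 in the aerial part and -0.19 in young leaves, so the mature leaf was the lowest of the 4 groups. The seed coat genes BAN, TT2 and TT12 were not well above background on both arrays of either group.

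Of 24 glucosinolate genes, 18 were higher (1 of them undetected in 2-day plants), 4 lower (1 undetected in mature leaves) and 2 not called, with a median of 1.45. In the aliphatic, methionine-derived branch, CYP79F1 (AT1G16410), which makes the aldoxime, rose from -1.49 and -1.27 to 3.36 and 3.39, a difference of 4.76 ± 0.09. The regulators MYB28 (AT5G61420) and MYB76 (AT5G07700) rose with it: MYB28 from -2.24 and -2.27 to -0.04 and -0.01, and MYB76 from below background to -2.39 and -2.31, at least 27.6-fold higher. BCAT4 and MAM1, of chain elongation, rose by 3.87 ± 0.13 and 3.69 ± 0.08.

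In the indole, tryptophan-derived branch, CYP79B2 (AT4G39950) fell from 3.51 and 3.43 to 0.80 and 1.08, CYP79B3 by 0.44, and the regulator MYB34 (AT5G60890) by 0.90. MYB122 (AT1G74080), another regulator, was at least 9.67-fold lower, and these were the 4 lower genes of the list. In the same branch the regulator MYB51 rose by 1.40 ± 0.13 and the oxime-metabolising enzyme CYP83B1 by 0.29 ± 0.07, and the sulfotransferase SOT16 was not called (-0.25 ± 0.13). TGG1 (AT5G26000), the myrosinase that breaks glucosinolates down, rose from 3.33 and 3.58 to 4.91 and 4.99, below its level in young leaves (6.40). Mature leaves exceeded young leaves for 21 of the 23 genes detected in either, CYP79F1 by 3.38 ± 0.09. They did so for 7372 of all 20354 genes tested and were below young leaves for 7218. By spike-in scaling 13 of the 24 were higher than in 2-day plants and 7 lower, with a median of 0.42.

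Of the salicylate defence genes, PR1, FMO1, ALD1 and WRKY62 were not well above background on both arrays of either group, and of 13 tested 8 were higher and 5 lower, with a median of 1.2. The higher genes include 3 undetected in 2-day plants and the lower genes 2 undetected in mature leaves, which had to differ that way. By spike-in scaling 5 were higher and 5 lower with a median of 0.17, and after normexp correction 8 and 2. BGL2 (AT3G57260), a beta-1,3-glucanase also known as PR2, read -5.26 and -5.26 in mature leaves and was at least 3.68-fold higher, and PR5 (AT1G75040) was at least 3.23-fold higher. PBS3 (AT5G13320), of salicylate synthesis, rose from -8.21 and -6.36 to -2.87 and -2.83, and ACD6 (AT4G14400), an ankyrin membrane protein, by 3.51 ± 0.20. The first 2-day reading of PBS3 lay below that array's lowest level well above background (-7.18). Its difference was as small as 1.22 under an alternative. EDS5 (AT4G39030), the chloroplast exporter of the pathway, fell from -0.52 and -0.33 to -4.40 and -4.71, and WRKY38 (AT5G22570) was at least 4.42-fold lower, a call lost after normexp correction (adjusted p = 0.33). ICS1, isochorismate synthase, fell by 0.54.

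Jasmonate synthesis and response genes were higher in 11 of 16 cases and lower in 5, with a median of 2.19 (1.17 by spike-in scaling). In each direction 2 genes were undetected in the other group. CORI3 (AT4G23600), a jasmonate-induced C-S lyase, was undetected in 2-day plants and read 2.92 and 3.21 in mature leaves, at least 1177-fold higher, and the defensin PDF1.2 (AT5G44420), at -1.17 and 0.62, was at least 116-fold higher. LOX2 (AT3G45140), the lipoxygenase of chloroplast membranes, rose from -0.41 and 0.78 to 4.78 and 5.17. The vegetative storage protein VSP2 (AT5G24770) rose by 3.26 ± 0.17, yet mature leaves were lower than young leaves, with a difference of -2.30 ± 0.17 (adjusted p = 6.29e-05). AOC1 rose from -0.97 and -0.77 to 2.88 and 2.73, whereas its paralogue AOC3 was at least 12-fold lower. JAZ10 (AT5G13220), a repressor induced by the hormone, fell from -0.88 and -1.12 to -5.48 and -5.99, and TAT3 (AT2G24850) was at least 15.7-fold lower.

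Of 18 flowering-time genes, 10 were higher, 6 lower and 2 not called, with a median of 1.33. By spike-in scaling 8 were higher and 7 lower, with a median of 0.31. The higher genes include 3 undetected in 2-day plants and the lower genes 1 undetected in mature leaves. FT (AT1G65480), the leaf-made florigen, was undetected in 2-day plants and read -2.41 and -2.46 in mature leaves, at least 26.1-fold higher; it was at -4.32 in the aerial part and undetected in young leaves. Its relative TSF was at least 5.64-fold lower.

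SOC1 (AT2G45660, listed as AGL20), which integrates floral signals, rose from -2.15 and -2.31 to 4.51 and 4.63, a difference of 6.80 ± 0.09 (adjusted p = 9.42e-08). SPL3 (AT2G33810), a target of a microRNA of the juvenile phase, was undetected in seedlings and stood at least 78.9-fold higher, SPL4 and SPL5 rose by 5.98 ± 0.15 and 4.17 ± 0.14, and SPL15 fell by 1.28. The repressor FLC (AT5G10140) fell from -1.18 and -1.25 to -4.75 and -5.0, and SMZ (AT3G54990), a repressor of the AP2 family, from 0.08 and 0.15 to -5.50 and -5.78. SVP, another repressor, rose by 3.06 ± 0.09, and CO was not called (0.62 ± 0.69).

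The 4 floral genes tested, SEP1, SEP2, SEP3 and PI, were higher in mature leaves, with a median of 4.13 (2.84 with bounds, 1.53 after normexp correction). SEP1 and SEP2 were undetected in 2-day plants and so had to be higher to be tested. PI, a gene of petal and stamen identity, was detected in both groups and rose from -5.81 and -5.82 to -4.26 and -4.27. SEP3 (AT1G24260) rose from -7.36 and -6.82 to -2.06 and -2.13 and SEP1 (AT5G15800), undetected at 2 days, to -2.95 and -3.05, at least 17.6-fold. SEP1 was higher in the aerial part (-0.82) and in young leaves (-0.27) than in mature leaves. AP1, AP3 and LFY were well above background on no array of either group and AG on 1 mature-leaf array, and none of the 4 was tested.

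Of 11 clock genes, 3 were higher, 0 lower and 8 not called, with a median of 0.99 (-0.03 by spike-in scaling). After normexp correction 6 were higher and 0 lower. PRR9 (AT2G46790) read -5.75 and -5.84 in 2-day plants and -1.38 and -1.71 in mature leaves, a difference of 4.25 ± 0.54, and CCA1 (AT2G46830) read -1.19 and -1.09 and 2.31 and 1.54, a difference of 3.06 ± 0.62. LHY read -0.27 and -1.68, LUX -1.3 and 0.28 and PRR5 0.62 and 2.58 on mature-leaf arrays 1 and 2, so these replicates stood apart by more than 1 on the log2 scale. The hour of harvest is not given in the sources used here, and its part in the result was not tested.

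Of 16 iron genes, 8 were higher (1 of them undetected in 2-day plants) and 8 lower (2 undetected in mature leaves), and the median of -0.29 changed sign under 5 alternatives and was -1.31 by spike-in scaling, so the members are given singly. The ferric reductases FRO6, a plasma membrane enzyme of shoots, and FRO7, which serves the chloroplast, read -2.22 and -2.16 and -5.09 and -4.08 in 2-day plants and 7.41 and 7.18 and 5.84 and 5.67 in mature leaves. They differed by 9.48 ± 0.13 (adjusted p = 9.42e-08) and 10.35 ± 0.32 (adjusted p = 9.78e-07), with the aerial part at 6.08 and 4.56. FRO6 and FRO7 are neighbours on chromosome 5 and similar in sequence, and whether their probes bind both transcripts was not tested.

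FRO4 (AT5G23980) rose from -4.30 and -4.56 to 1.49 and 1.65 and FRO8 (AT5G50160), a mitochondrial form, from -1.55 and -1.24 to 2.67 and 2.97. FRO3 (AT1G23020) rose by 2.33 ± 0.10 and FRO1 (AT1G01590), undetected at 2 days, by at least 3.55-fold. FRO2 (AT1G01580), the reductase of root iron uptake, was low in both groups, -4.48 and -4.25 against -3.64 and -3.71, a difference of 0.69 ± 0.21 that was lost without 2-day replicate 1 or either mature-leaf array and was negative by spike-in scaling (-0.33). FRO5 (AT5G23990) read -6.79 and -6.65 in 2-day plants and was not well above background in mature leaves. The fit called it lower (adjusted p = 0.043), but its level in 2-day plants did not exceed the limit that detection in mature leaves sets, so no fold is given. That call was lost without any 1 of the 4 arrays, and the difference turned positive after normexp correction (0.78).

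All 4 ferritins, which store iron in plastids and mitochondria, fell. FER1 (AT5G01600) went from 3.95 and 4.26 to 0.31 and 0.46, FER4 (AT2G40300) from 5.15 and 5.01 to 0.33 and 0.28, and FER3 (AT3G56090) from 2.86 and 3.04 to -2.17 and -1.98. FER2 (AT3G11050), the ferritin known from seeds, fell by 5.34 and was well above background on 1 of the mature-leaf arrays. Their differences of -3.72, -4.78, -5.02 and -5.34 had adjusted p values of 4.20e-05, 6.78e-06, 2.83e-06 and 5.42e-07. Among nicotianamine synthases, which make the metal chelator of phloem transport, NAS1 (AT5G04950) rose by 1.56 ± 0.32, a call lost by spike-in scaling (adjusted p = 0.13). NAS2 (AT5G56080) was at least 15.6-fold lower, and NAS3 (AT1G09240) and NAS4 (AT1G56430) fell by 2.28 and 1.52.

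**Figure D4:**
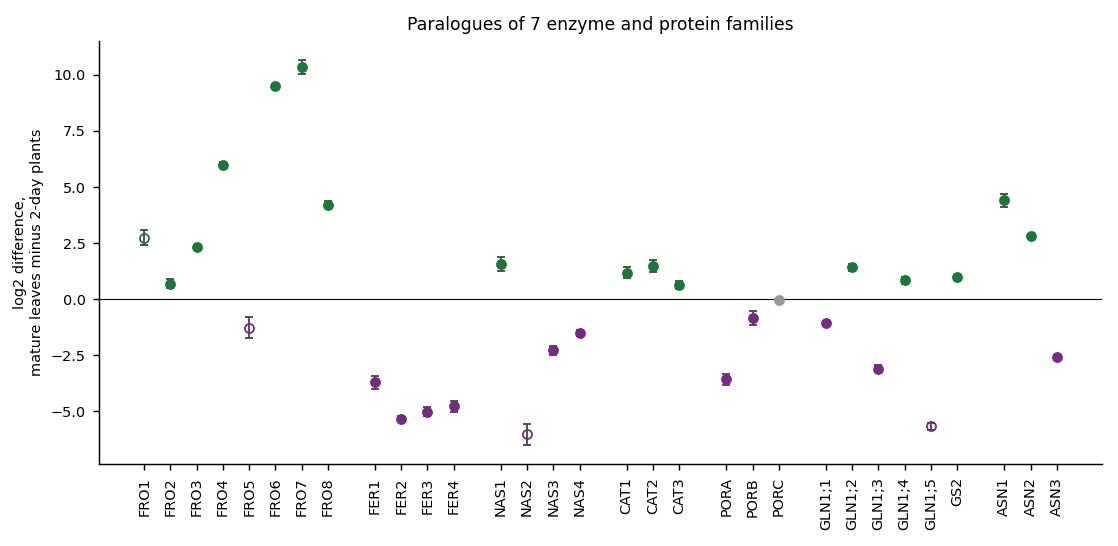
Log2 difference between mature leaves and 2-day plants (points, with the standard error of the limma fit) for the ferric reductases (FRO), ferritins (FER), nicotianamine synthases (NAS), catalases (CAT), protochlorophyllide oxidoreductases (POR), glutamine synthetases (GLN and GS2) and asparagine synthetases (ASN). Green, purple and grey points were called higher, lower or not called, and open points were undetected in 1 group. FRO6 and FRO7 lie highest, and the 4 ferritins all lie below 0.

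The 3 catalases were each higher with the main scaling. CAT2 (AT4G35090), the leaf catalase of photorespiration, rose from 5.0 and 5.29 to 6.81 and 6.43, a difference of 1.47 ± 0.25, and CAT1 (AT1G20630) by 1.19 ± 0.25, both not called by spike-in scaling (adjusted p = 0.13 and 0.51). CAT3 (AT1G20620) was 0.63 ± 0.20 higher, a call lost with quantile normalization and without 2-day replicate 1 or mature-leaf replicate 2, and lower by spike-in scaling (-0.40). Vacuolar processing enzymes went both ways. GAMMA-VPE (AT4G32940), of vegetative organs, rose from 2.16 and 2.31 to 4.27 and 4.44. DELTA-VPE (AT3G20210), known from the seed coat, fell from -0.81 and -0.72 to -5.34 and -6.57, and ALPHA-VPE (AT2G25940) was at least 16.1-fold lower. CA1 (AT3G01500), a chloroplast carbonic anhydrase, rose by 1.60 ± 0.21. Over the 10 genes of this list 7 were higher and 2 lower (1 undetected in mature leaves), with a median of 0.69 that became -0.33 by spike-in scaling and 1.13 with median scaling.

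The lists were set beside the other 21-day groups to show where mature leaves stood. The 3 sets of differences from 2-day plants share the 2-day arrays, so they are given side by side only. The median of the cell cycle list was -0.64 in young leaves, -1.02 in the aerial part and -4.67 in mature leaves, and that of the stomatal lineage -0.15, -1.16 and -6.13. For secondary wall genes the medians were 0.37, 0.02 and -1.56. For glucosinolates they were -0.56, 0.78 and 1.45 and for senescence genes -0.60, 0.10 and 1.32, in the same order. Root markers (-6.89, -5.51 and -6.33) and seed storage genes (-4.94, -3.91 and -4.38) were low in all 3 groups. After normexp correction the medians in mature leaves were smaller for the stomatal lineage (-2.02), the root markers (-2.21) and the seed storage genes (-0.77).

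Tests of mature leaves against young leaves in the same fit found 1 of 30 cell cycle genes, CDKA;1, above young leaves and 29 below. For the stomatal lineage 9 of 10 genes were below young leaves and also below the aerial part, and FAMA was not called in either. Of the 9 glyoxylate cycle genes detected in either leaf group, 6 were above young leaves and 0 below. Over all 20354 genes tested, 7372 were above young leaves and 7218 below, and 5971 were above the aerial part and 6338 below. SEN1 was above young leaves by 4.72 ± 0.18 (adjusted p = 6.06e-06). Both leaf groups came from 1 slide and the aerial part from the other. None of the comparisons between 21-day groups, here or above, was repeated with another scaling. Before scaling, the 75th percentile was 9.77 and 9.72 on the young-leaf arrays and 8.94 and 9.02 on the mature-leaf arrays. The spike-in centre was 11.28 and 11.29 on the young-leaf arrays and 11.43 and 11.42 on the mature-leaf arrays. Scaling on the spike-ins would thus lower every difference of mature from young leaves, so counts above young leaves hold for the main scaling only.

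**Figure D5:**
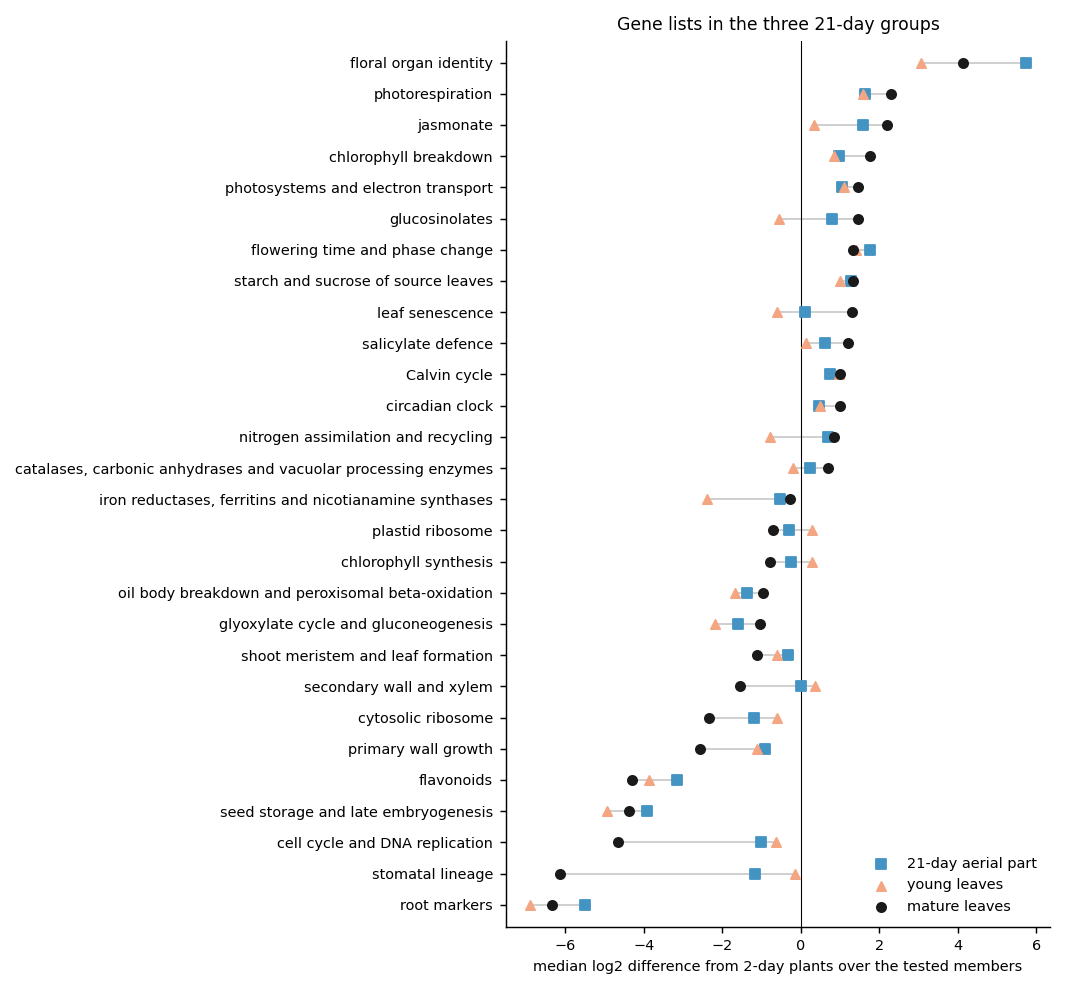
Median log2 difference from 2-day plants (horizontal axis) over the tested members of each of 28 gene lists, for the 21-day aerial part (squares), young leaves (triangles) and mature leaves (circles). All 3 use the same 2-day arrays. Mature leaves lie far to the left of both other groups for the stomatal lineage (-6.13) and the cell cycle (-4.67), and to the right for senescence (1.32) and glucosinolates (1.45).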

How the data were processed

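RNA of 8 samples was hybridised to one-colour Agilent arrays. The deposited intensity values were the scanner's processed signal, background-subtracted in Agilent Feature Extraction 10.10.1.1 (protocol GE1_1010_Sep10), per the file headers, which name TAIR10 as the grid build. Here the log2 of that signal, minus the 75th percentile of each array, was fitted with limma 3.58.1 (R 4.3.3), using all 8 arrays. Control spots and outlier spots were left out. A probe was kept if both arrays of 1 or both groups compared gave it the scanner's call of well above background, and the brightest kept probe stood for its locus. P values were adjusted by the Benjamini-Hochberg method over 20354 genes, with a threshold of 0.05. Where neither array of a group gave that call, termed undetected, the fold is a lower bound ("at least"), set against the higher of the lowest signal among probes well above background and its own. Bounds were computed with the main scaling and background subtraction only, and alternatives can give smaller folds. Only 2 arrays a group limit the precision. The p-values set each difference against the moderated spread between replicate arrays, estimated over all 8. The fit was tested on simulated data.

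The gene lists and members were chosen with earlier results of these data known. Genes given with a locus are the 8 largest rises and falls, the 3 largest bounds each way, per list the 2 largest called changes each way and set members, and the FRO, FER, NAS, catalase, POR, GLN1 and ASN families. Members without a locus were picked after their values were seen. Alternatives were normexp background correction (offset 50, on the median spot and background intensity), 3 other scalings, other filters, the mean over probes, the authors' deposited intensity value table, a fit to the 4 arrays alone, a replicate block and each array left out. The basis of the scaling in that value table is not given in the sources used here.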

Additional observations from a re-analysis of the deposited data

Results flagged for a closer look

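Probes that match no locus in the array's annotation entered none of the comparisons. Among them, 163 were well above background on each mature-leaf array but on no 2-day array, and 618 showed the opposite pattern. The transcripts that both sets measure are not named, and whether some are further probes of genes reported here was not tested.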

How the results depend on the processing

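Scaling moved the balance of calls most. With spike-in scaling 2712 genes were higher and 14593 lower, 1609 and 11127 of them by 2-fold or more, and with median scaling 6152 were higher by 2-fold or more. After normexp correction 3873 genes were 2-fold lower, and 4103 were when genes had to be detected on all 4 arrays. Relative to the main scaling the median of all genes moved by 0.44 with median scaling, -1.02 with spike-ins and -0.25 in the deposited value table. Leaving out 1 array gave 7333 to 7464 genes higher and 8967 to 9125 lower. A fit with a replicate block gave 7887 genes higher and 9548 lower. Same-numbered samples of 2-day plants and mature leaves did not deviate together (r = -0.03), while those of the 21-day groups did in part (r = 0.27 to 0.35). With 2 numbers this is a hint from the data, and the fits are unpaired. In fits to the 6 arrays of 21 days, chosen after seeing the data, a replicate block called 8002 genes above and 7726 below young leaves against 7440 and 7281 without it, and 7068 and 6907 against 6073 and 6325 for the aerial part. With the block 10 stomatal genes, FAMA included, were below young leaves, and 16 senescence and 8 glyoxylate cycle genes above. A slide block could not be fitted.

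The median of the iron list became 0.79 after normexp correction, 0.15 with median scaling, 0.47 with quantile normalization, 1.12 with detection on all 4 arrays and 0.87 in the value table. Spike-in scaling turned the medians of the Calvin cycle (-0.020), nitrogen (-0.18), clock (-0.031) and catalase lists (-0.33). It also turned ACN1 (-0.29), AIM1 (-0.058), GLN1;4 (-0.18), CDKA;1 (-0.77), FRO2 (-0.33), CAT3 (-0.40), PSBS (-0.64) and RBCS1A (-0.41). Members given without a locus were not followed singly. The rises of PSBQA, SPS1F, BAM1, GS2 and CYP83B1 were smaller in size than the spike-in shift of -1.02, which would turn them. Quantile normalization turned PSBS (-0.34), RBCS1A (-0.29) and PORC (0.046), median scaling PORC (0.39) and HEMA1 (0.21), and normexp correction BAM5 (0.48) and FRO5 (0.78). CDKA;1 was at -0.0013 in the value table and PORC ranged from -0.0876 to 0.0020 with 1 array left out. The cause of these changes was not tested. Of all values of named genes under these alternatives, 2552 kept direction and side of the threshold, 55 lost the call, 4 gained it and 17 changed direction.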
